A study of Mus musculus with 6 samples.

Results

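The mitochondrial ribosomal protein genes of the mouse carry the names Mrpl, for the large subunit, and Mrps, for the small subunit. All protein-coding genes whose name in the count table is Mrpl or Mrps followed by a number were taken, which gave 75 of the 41721 genes listed, 47 with an Mrpl name and 28 with an Mrps name. Of these, 73 had enough counts to be tested, among 14085 tested genes in all. The libraries came from cultured vascular smooth muscle cells of the abdominal aorta of young adult mice, and all 6 were treated with angiotensin II (Ang II), so the control cultures carried the treatment too. The 3 Pdk4fl/fl libraries carry the loxP-flanked Pdk4 allele without deletion, and the 3 Pdk4SMKO libraries come from mice in which that allele was recombined by a tamoxifen-activated Cre recombinase that is driven by the Myh11 promoter and so acts in cells that use that promoter. The study calls the libraries of a genotype biological replicates, but the labels do not say whether each came from its own animal, so each p-value measures the spread between these cultures, which may be technical.

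The mitochondrial ribosome sits in the matrix and makes the few proteins that mitochondrial DNA encodes, all of them core subunits of the respiratory chain and ATP synthase. Its RNA is transcribed in the mitochondrion, whereas its proteins are encoded in the nucleus, made in the cytosol and imported. Many of them have a counterpart in bacterial ribosomes, and others were added in the mitochondrial lineage. Pdk4 encodes a kinase that switches off the pyruvate dehydrogenase complex and thereby limits the entry of pyruvate carbon into the mitochondrial tricarboxylic acid cycle.

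Pdk4 was measured first, as a check of the labels. It had 570, 639 and 421 counts in the Pdk4fl/fl libraries and 110, 182 and 141 in the Pdk4SMKO libraries. Its level was 34.98 ± 3.07 against 6.93 ± 2.11 CPM (mean ± SD, n = 3 per genotype). CPM is the count scaled by the library total after that total is adjusted by the trimmed mean of M-values (TMM). The CPM of all tested genes then summed to 1193440 to 1276230 in the Pdk4fl/fl and 796713 to 825093 in the Pdk4SMKO libraries. Summed CPM are therefore not shares of equal totals. The log2 fold change of Pdk4 was -2.34 ± 0.22 (SE) with an adjusted p of 4.49e-06 in edgeR's quasi-likelihood test. Pdk4 was lower in the Pdk4SMKO libraries without overlap, and reads from it remained in all of them.

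Library totals ran from 16526044 to 22481670 counts, at which 3 counts, taken as the floor, were worth 0.132 to 0.227 CPM. The genotypes stood far apart. Correlations of log2 CPM over all tested genes were at least 0.981 within a genotype and at most 0.748 between them, and TMM factors were 0.784 to 0.838 in the Pdk4fl/fl and 1.21 to 1.26 in the Pdk4SMKO libraries. Cell type markers moved with genotype as well. Of 8 smooth muscle markers, 4 were lower and 4 higher in Pdk4SMKO, with summed levels of 785 to 811 against 723 to 954 CPM, and Myh11 itself was at 0.613 against 2.39 CPM. Fibroblast markers summed to 625 to 854 against 5151 to 7054 CPM, with 3 of 5 higher and 1 lower, and 7 of 7 tested mesothelial markers were higher, from 74.2 to 99.99 CPM up to 738 to 1351 CPM. Of 7 macrophage markers 6 were higher and 1 lower, with sums of 21.4 to 38.0 against 11.6 to 37.3 CPM, and C1qa, C1qb, C1qc, Adgre1 and Tyrobp were at 0 in all Pdk4fl/fl libraries. Endothelial markers summed to 12.5 to 21.6 against 2.14 to 4.61 CPM with Cldn5 at 0 throughout and only Kdr tested, and 3 of 6 proliferation markers were lower, with sums of 797 to 813 against 304 to 469 CPM. The part of these differences in the values below was not tested, and in bulk libraries fewer cells of a type and less RNA per cell cannot be told apart. Xist, the transcript of the inactive X chromosome, had 3 to 5 counts in the Pdk4fl/fl and 321 to 610 in the Pdk4SMKO libraries, and is a mark of female cells. The study describes all mice as male and the Cre transgene as Y-linked, so the Xist counts of the Pdk4SMKO libraries go against that description, and genotype and the sex of the cells cannot be told apart.

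The stretch around the start of a gene holds sites for the factors that start its transcription. RefSeq promoter windows (GRCm38.p6, 250 bases before to 50 after the annotated start) were found for 66 of the 75 members. The windows below show the divergent pair of members Mrpl46 and Mrps11, the decoding-centre gene Mrps12, and members from each end of the ranking, Mrpl9 at the lower end and Mrpl22 and Mrpl44 at the upper. Each runs 5′ to 3′ on the gene's own strand, from 200 bases before to 30 after the start, and capitals mark matches to the 5 motifs searched. Their positions on GRCm38.p6 are chr7:78782931-78783160 on the plus strand for Mrps11, chr7:28741792-28742021 on the minus strand for Mrps12, chr3:94443136-94443365 on the plus strand for Mrpl9, chr11:58171464-58171693 on the plus strand for Mrpl22 and chr1:79775818-79776047 on the plus strand for Mrpl44.
Mrps11: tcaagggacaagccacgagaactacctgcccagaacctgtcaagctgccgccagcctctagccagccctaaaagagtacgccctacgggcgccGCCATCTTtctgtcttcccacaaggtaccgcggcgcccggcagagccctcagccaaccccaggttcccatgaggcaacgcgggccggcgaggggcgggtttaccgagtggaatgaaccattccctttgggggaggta
Mrps12: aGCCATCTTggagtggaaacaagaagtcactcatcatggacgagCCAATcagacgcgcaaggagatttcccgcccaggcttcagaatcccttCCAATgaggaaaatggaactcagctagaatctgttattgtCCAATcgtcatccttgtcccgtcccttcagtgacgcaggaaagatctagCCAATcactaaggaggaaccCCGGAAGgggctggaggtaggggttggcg
Mrpl9: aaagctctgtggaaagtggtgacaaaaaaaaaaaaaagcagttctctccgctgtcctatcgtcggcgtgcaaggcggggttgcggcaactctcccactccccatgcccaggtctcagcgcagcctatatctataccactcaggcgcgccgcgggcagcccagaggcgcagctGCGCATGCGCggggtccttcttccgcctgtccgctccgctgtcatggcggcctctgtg
Mrpl22: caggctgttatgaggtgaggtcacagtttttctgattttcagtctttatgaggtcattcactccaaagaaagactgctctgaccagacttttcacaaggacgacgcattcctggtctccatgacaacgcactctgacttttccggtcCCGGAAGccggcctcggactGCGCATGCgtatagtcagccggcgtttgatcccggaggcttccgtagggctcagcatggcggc
Mrpl44: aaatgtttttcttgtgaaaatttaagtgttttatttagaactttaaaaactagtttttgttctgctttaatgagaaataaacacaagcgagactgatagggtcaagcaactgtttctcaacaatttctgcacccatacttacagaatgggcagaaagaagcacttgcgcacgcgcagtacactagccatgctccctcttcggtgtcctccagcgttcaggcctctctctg

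The motifs were searched as fixed letters, without variants, on both strands of the whole windows. They were GCATGCGC, from the site of NRF1, CCGGAAG of the ETS family, AAGATGGC of YY1, CCAAT of NF-Y, and the E-box CACGTG. The ETS letters were present for 23 of the 66 members (34.8%), against 12.9% of 17491 protein-coding genes with a window. The NRF1 letters were present for 8 members (12.1% against 3.93%) and the YY1 letters for 12 (18.2% against 3.57%). CCAAT, at 40.9% against 42.3%, and the E-box, at 7.58% against 8.91%, were about as frequent among members as among all coding genes. The ETS letters stood in 3 of the 20 windows of members that fell at least 2-fold, in 2 of 6 of those that rose at least 2-fold and in 18 of 40 of the others, while the YY1 letters stood in 6 of 20, 2 of 6 and 4 of 40. In the printed windows, Mrpl9 carries the NRF1 letters on both strands as a single palindrome, and Mrpl22 has an NRF1 and an ETS match side by side. Mrps12 has 4 CCAAT matches with a YY1 and an ETS match, and Mrpl44 has no match to these exact letters. A match describes the letters only, variants of a site go unmarked, and a window without a match may still hold a site. These shares were not tested.

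Across the complex, more members were lower than higher in the Pdk4SMKO libraries, and they spread over a wide range of change. Past both limits, an adjusted p under 0.05 together with a change of at least 2-fold, 22 of the 73 tested members were lower (30.1%) and 7 were higher (9.59%). Over all tested genes, 26.5% were called lower and 32.8% higher by that rule, so the share of members that fell was near the background and the share that rose was below it. At the adjusted p alone, 36 members (49.3%) were lower and 12 (16.4%) were higher, against 37.1% and 42.0% of all tested genes, and 25 did not pass. The median log2 fold change of the members was -0.45, from -3.00 to 2.81, with 51 below 0 and 22 above, and that of all tested genes was 0.12. The levels of the genotypes did not overlap for 50 of the 73 members (68.5%), against 81.8% of all tested genes.

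**Figure D1:**
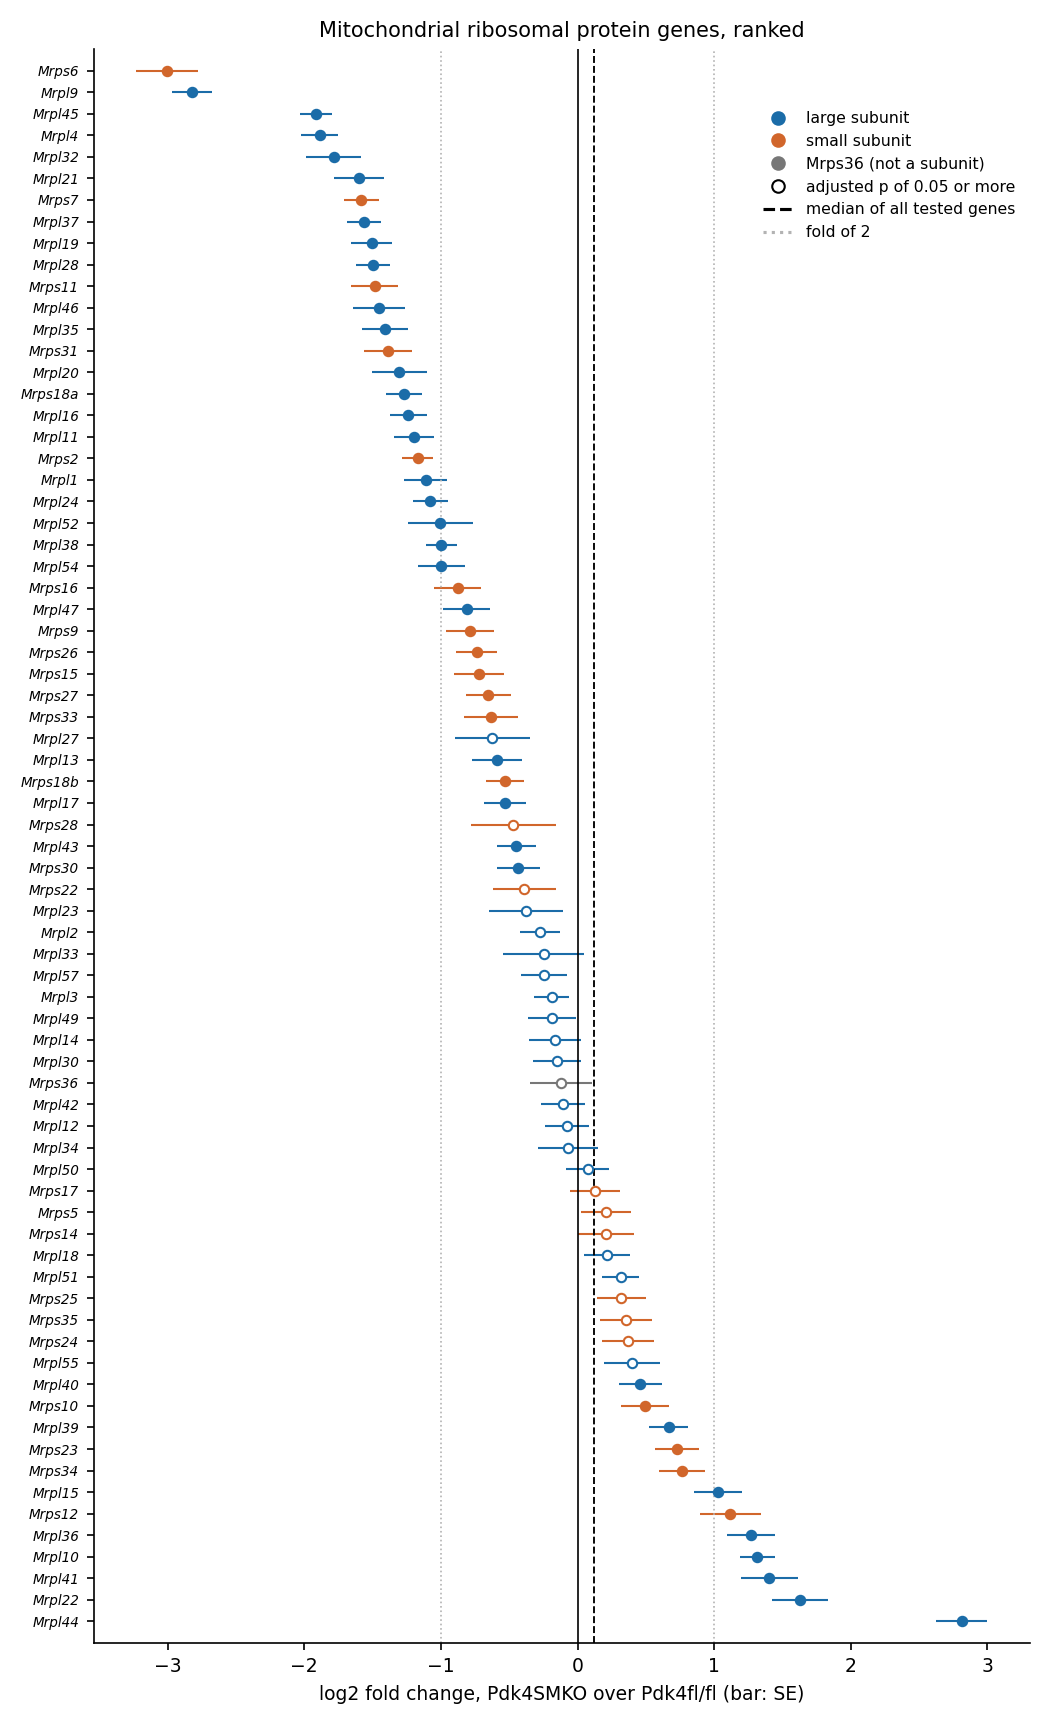
Log2 fold change (Pdk4SMKO over Pdk4fl/fl, horizontal axis) of the 73 tested mitochondrial ribosomal protein genes, ranked from lowest to highest, with bars for the SE, filled points for an adjusted p under 0.05, colours for the subunit, dotted lines at a fold of 2 and a dashed line at the median of all tested genes (0.12). Mrps6 and Mrpl9 stand apart at the lower end and Mrpl44 at the upper end, and the members between them form a continuous series.

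How far the members moved depended on the scaling. Scaled to library size alone, the counts past both limits were 5 lower and 13 higher, those past the adjusted p alone 22 lower and 29 higher, and the median was 0.16, while the median of all tested genes moved to 0.72. The distance between the members' median and that of all tested genes was -0.57 with TMM and -0.56 with library size alone, which a change of scaling leaves in place because it shifts all genes by nearly the same amount. With other filters and with single libraries left out it was -0.73 to -0.39. Of the 29 members past both limits 0 changed sign under any alternative run, and 5 were lower and 5 higher past both limits under all of them, which are the 10 genes described next. The members' counts made up 0.216, 0.222 and 0.270% of all counts in the Pdk4fl/fl libraries and 0.207, 0.204 and 0.221% in the Pdk4SMKO libraries, which overlap. Pdk4fl/fl replicate 3 had the highest share of the 6, and without it 19 members in place of 12 were higher at the adjusted p alone.

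The members lowered most were Mrps6, Mrpl9, Mrpl45, Mrpl4 and Mrpl32. Mrps6 encodes bS6m, a protein of the small subunit's platform that has a bacterial counterpart. Its level was 216, 240 and 320 CPM in the Pdk4fl/fl and 22.4, 36.7 and 37.6 CPM in the Pdk4SMKO libraries, 8.02-fold lower (log2 fold change -3.00 ± 0.23, adjusted p = 9.54e-07). In Pdk4fl/fl it was also the most highly expressed member per gene length, at 246 CPM per kilobase. In Pdk4SMKO it was at 30.6, below Mrps16 at 37.4. The span of Mrps6 on chromosome 16 (96104626 to 96159649, plus strand) encloses Slc5a3, a myo-inositol transporter gene, and Gm16310, a sense intronic transcript. These 2 genes were chosen after their values were seen. Slc5a3 was at 64.4 ± 11.7 against 80.6 ± 35.8 CPM and did not pass the test (log2 fold change 0.32, adjusted p = 0.351), whereas Gm16310 fell with Mrps6, from 10.9 to 0.317 CPM.

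Mrpl9 encodes bL9m of the large subunit, which extends from the base of the L1 stalk. It stood at 132, 153 and 176 CPM in Pdk4fl/fl and at 23.7, 21.1 and 20.5 CPM in Pdk4SMKO, a fall by 2.82 ± 0.15 on the log2 scale (adjusted p = 8.11e-08). Mrpl45, whose product mL45 anchors the mitochondrial ribosome to the inner membrane next to the peptide exit, was at 118, 114 and 131 against 30.7, 31.6 and 33.8 CPM and fell by 1.91 ± 0.12 (adjusted p = 2.68e-07). These replicates lay close together, with each genotype's SD at most 21.7 CPM. Mrpl4, which encodes uL4m, a protein whose bacterial counterpart lines the exit tunnel, was at 86.1, 93.1 and 93.6 against 24.4, 27.7 and 21.6 CPM and fell by 1.89 ± 0.13. Mrpl32 encodes bL32m, which is matured by the m-AAA protease of the inner membrane before it joins the large subunit. It was at 54.9, 58.0 and 93.0 against 19.2, 19.7 and 20.8 CPM and fell by 1.79 ± 0.20, the Pdk4fl/fl replicates being more spread in proportion to their mean than for the previous 4 genes. None of these 5 genes, taken from the lower end of the ranking, overlapped between genotypes, and 81.8% of all tested genes did not.

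The 5 members raised most were Mrpl44, Mrpl22, Mrpl41, Mrpl10 and Mrpl36, all of the large subunit. Mrpl44 encodes mL44, a protein with a ribonuclease III-like fold near the peptide exit. It had 37, 43 and 39 counts in the Pdk4fl/fl libraries and 406, 365 and 377 in the Pdk4SMKO libraries. In CPM these were 2.47, 2.36 and 2.95 against 17.8, 18.2 and 18.5, a 7.02-fold rise (log2 fold change 2.81 ± 0.19, adjusted p = 3.99e-07). The replicates of each genotype agreed closely, and Mrpl44 went from among the lowest levels per gene length in Pdk4fl/fl (1.58 CPM per kilobase, next to 1.60 for Mrps35) to 11 CPM per kilobase.

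Mrpl22 encodes uL22m of the exit tunnel and rose by 1.63 ± 0.20, from 4.13, 4.39 and 5.68 to 13.0, 14.1 and 16.7 CPM (adjusted p = 3.78e-05). Mrpl41, whose product mL41 belongs to the mitochondrial-specific proteins, was at 4.80, 4.78 and 7.11 against 13.7, 13.9 and 16.4 CPM and rose by 1.41 ± 0.21. Mrpl10, encoding uL10m, the base of the stalk that recruits translation factors, was at 20.3, 17.7 and 19.6 against 50.5, 45.7 and 47.4 CPM and rose by 1.32 ± 0.13. These 3 genes were taken from the upper end of the ranking, so their shared direction follows from that choice. Their levels did not overlap between genotypes, which held for 81.8% of all tested genes. Mrpl36 encodes bL36m, a small late-joining protein of the large subunit, and rose by 1.27 ± 0.17, from 9.67, 13.3 and 14.5 to 28.1, 29.8 and 32.4 CPM. With the exception of Mrpl10, these genes were at under 15 CPM in each Pdk4fl/fl library, whereas the 5 lowered most were all above 50 CPM there. Both groups were chosen by their change relative to the Pdk4fl/fl level, so this contrast follows in part from the choice.

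**Figure D2:**
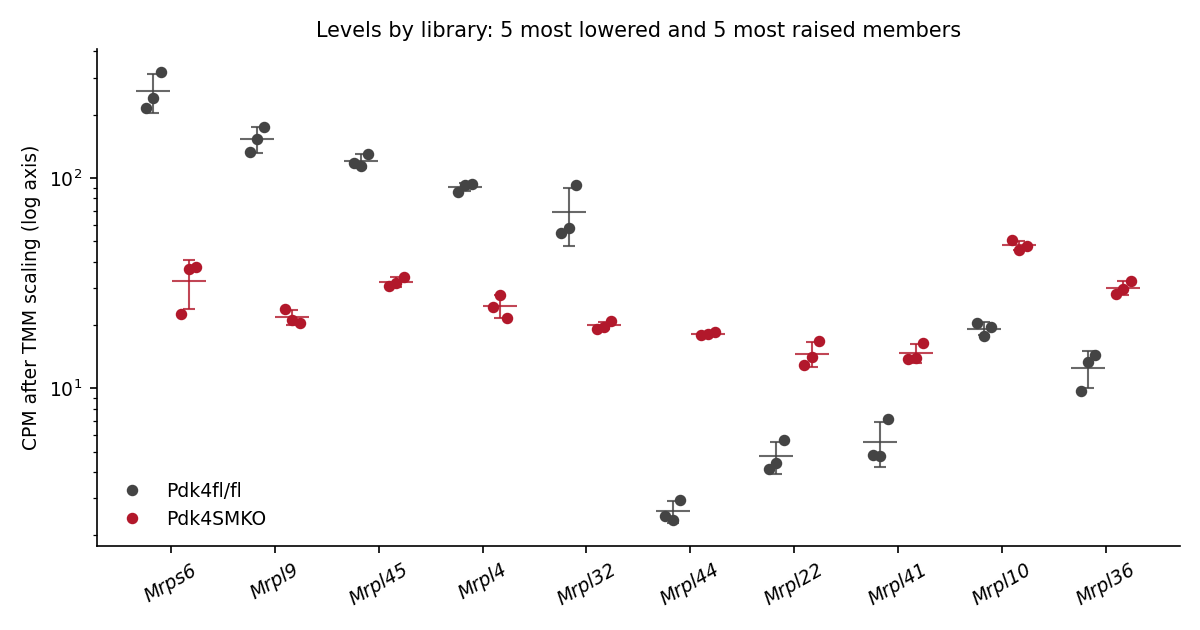
Level in CPM after TMM scaling (log axis) of the 5 most lowered and the 5 most raised members in each of the 6 libraries, with points for libraries, long ticks for the mean and bars for the SD of 3 libraries per genotype. The genotypes do not overlap for any of the 10 genes, which were chosen by their change, nor for 81.8% of all tested genes. Mrpl44 rises from 2.59 ± 0.31 to 18.2 ± 0.33 CPM.

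The factor-binding stalk was split in direction. Mrpl11, encoding uL11m at its base, was at 43.6, 47.3 and 60.1 against 21.6, 22.1 and 22.1 CPM and fell by 1.20 ± 0.15 (adjusted p = 3.37e-05). Its neighbour in the stalk Mrpl10 rose, as given above. Mrpl12, which encodes the multi-copy stalk protein bL12m and is also known as a partner of mitochondrial RNA polymerase, did not pass the test, at 25.3, 26.3 and 35.6 against 30.03, 26.1 and 26.2 CPM (log2 fold change -0.08 ± 0.16, adjusted p = 0.669), and the sign of its estimate depended on the scaling. The level of Mrpl12 thus overlapped between genotypes while those of Mrpl10 and Mrpl11 did not.

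Proteins around the peptide exit were split as well. Mrpl24, encoding uL24m, was at 52.1, 48.5 and 54.7 against 24.4, 22.2 and 27.0 CPM and fell by 1.08 ± 0.13. Mrpl47, which encodes uL29m, fell by 0.81 ± 0.17 (16.5, 16 and 21.5 against 10.6, 10.6 and 9.52 CPM), and Mrpl17, for bL17m, fell by 0.53 ± 0.16 (36.3, 40.5 and 51.5 against 32.2, 27.7 and 28.8 CPM), but with library size alone neither passed, at -0.20 for Mrpl47 (adjusted p = 0.285) and 0.08 for Mrpl17 (adjusted p = 0.619). Mrpl23, for uL23m, did not pass at -0.38 ± 0.27 (6.47, 11.8 and 14.2 against 7.82, 7.86 and 9.27 CPM), whereas without Pdk4fl/fl replicate 1 the log2 fold change of Mrpl23 was -0.64 and passed. Counted with Mrpl22, Mrpl44 and Mrpl45, given above, 4 genes at or next to this site fell, 2 rose and 1 was not called. The roles assigned to members here give the peptide exit to Mrpl17, Mrpl22, Mrpl23, Mrpl24 and Mrpl47. Mrpl44 and Mrpl45 were added to the count with their values known. Mrpl4, given above with the exit tunnel, also fell and is not in this count. At the adjusted p alone, 37.1% of all tested genes were lower and 42.0% higher.

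In the central protuberance, where the large subunit carries its structural tRNA, Mrpl46 fell by 1.45 ± 0.19 (17.3, 18.0 and 25.6 against 7.42, 7.51 and 7.26 CPM). Mrpl38, for mL38, was at 71.6, 78.4 and 73.7 against 36.2, 37.4 and 38.6 CPM. Its log2 fold change of -0.996 ± 0.11 had an adjusted p of 1.79e-05 and lay just short of a fold of 2, as did that of Mrpl54 (33.5, 42.4 and 50.3 against 23.7, 18.6 and 20.9 CPM, each of them 1.99-fold lower). Mrpl52, at 2.01-fold lower, lay just past it (42.7, 48.0 and 85.1 against 27.6, 27.5 and 32.4 CPM). With library size alone neither Mrpl52 (log2 fold change -0.39, adjusted p = 0.134) nor Mrpl54 (-0.38, adjusted p = 0.0581) passed. Mrpl18, encoding uL18m, did not pass the test at 0.22 ± 0.17 (14.1, 14.3 and 19.1 against 19.8, 17 and 18.3 CPM), but did with library size alone (0.83, adjusted p = 0.000981). Of the protuberance genes named here, Mrpl46 and Mrpl38 thus fell and Mrpl18 was not called. They are not a full list of the proteins of that site.

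Mrps12 encodes uS12m, which lines the decoding centre where codon and anticodon pair. It was at 5.20, 7.03 and 9.16 CPM in Pdk4fl/fl and 15.6, 17 and 13.6 CPM in Pdk4SMKO and was the only small-subunit member past both limits in the upward direction (log2 fold change 1.12 ± 0.22, adjusted p = 0.000936). On the upper side of the ranking Mrpl15 was the nearest to a fold of 2 from above, at 2.04-fold (13.7, 13.1 and 19.6 against 31.0, 32.6 and 30.9 CPM). Mrps34 was the nearest from below, at 1.70-fold (8.60, 9.11 and 8.93 against 15.3, 16.9 and 13.1 CPM). Each of these 3 genes was higher in every Pdk4SMKO library than in any Pdk4fl/fl library. Levels without overlap, in either direction, were found for 81.8% of all tested genes.

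The names of 3 members no longer match their place. Mrps18a and Mrps30 are now assigned to the large subunit as mL66 and mL65, and Mrps36 encodes KGD4, a protein of the 2-oxoglutarate dehydrogenase complex in the tricarboxylic acid cycle. Mrps18a fell by 1.27 ± 0.13 (62.5, 63.6 and 74.5 against 25.3, 28.0 and 29.8 CPM). Mrps30 fell by 0.43 ± 0.16 (18.0, 18.8 and 22.2 against 13.4, 14.5 and 15.7 CPM, adjusted p = 0.0262), but the log2 fold change of Mrps30 was 0.18 with library size alone, and the call was lost without Pdk4fl/fl replicate 3 (-0.35), Pdk4SMKO replicate 1 (-0.37) or Pdk4SMKO replicate 2 (-0.42). Mrps36 did not pass (15.6, 20.3 and 27.0 against 15.9, 18.1 and 23.7 CPM, log2 fold change -0.12 ± 0.22), and its sign depended on the scaling.

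Sorted by the subunit to which the proteins are now assigned, 17 of 48 tested large-subunit genes were lower and 6 higher past both limits (24 and 8 at the adjusted p alone), with a median log2 fold change of -0.44. Of 24 small-subunit genes, 5 were lower and 1 higher (12 and 4), with a median of -0.50. The medians of the subunits thus lay close together, and the shares called lower at the adjusted p alone were 50% of each. Past both limits 35.4% of the large-subunit and 20.8% of the small-subunit genes were lower, and 12.5% and 4.17% were higher. Over all tested genes 26.5% were lower and 32.8% higher past both limits, and 37.1% and 42.0% at the adjusted p alone. Genes with a bacterial counterpart numbered 44, of which 16 were lower (36.4%) and 5 higher (11.4%) past both limits. At the adjusted p alone 22 were lower and 6 higher, with a median of -0.56. Of the 28 mitochondrial-specific genes, 6 were lower (21.4%) and 2 higher (7.14%) past both limits. At the adjusted p alone 14 were lower and 6 higher, with a median of -0.41. The difference between these classes was not tested.

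Levels within the complex were compared per gene length, as CPM per kilobase. Averaged over the 6 libraries, Mrps6, Mrpl32 and Mrps16 were the highest at 138, 57.6 and 53.1 CPM per kilobase, and Mrps10, Mrps5 and Mrps35 were the lowest at 2.73, 2.11 and 1.82. Mrps16, for bS16m, fell by 0.88 ± 0.17 (34.6, 32.8 and 49.3 against 21.4, 20.2 and 21.8 CPM), a call that was lost with library size alone (-0.27, adjusted p = 0.158). Mrps10 rose by 0.50 ± 0.18 (17.3, 15.0 and 22.5 against 23.6, 28.6 and 25.1 CPM, adjusted p = 0.0241), a call that was lost without Pdk4fl/fl replicate 1 (log2 fold change 0.47), Pdk4fl/fl replicate 2 (0.39) or Pdk4SMKO replicate 2 (0.42). Mrps5 and Mrps35 did not pass, at 13.5, 12.4 and 12.8 against 12.1, 14.7 and 18.0 CPM and at 12.4, 11.7 and 17.5 against 16, 17.8 and 19.2 CPM, although both did with library size alone (0.81 and 0.97).

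The members' levels were more even in the Pdk4SMKO libraries. The SD over the 73 members of the log2 level per kilobase was 1.45, 1.48 and 1.46 in the Pdk4fl/fl and 1.09, 1.10 and 1.09 in the Pdk4SMKO libraries, and without Mrps6 and Mrpl44 it was 1.33 to 1.37 and 1.08 to 1.10. This was not particular to the members. Over 7166 coding genes whose mean level lay in the members' range of 9.57 to 145 CPM, with no library at 0, the same SD was 1.84 to 2.00 and 1.38 to 1.42. Between the genotypes the members' mean log2 levels per kilobase correlated with r = 0.716 over 73 genes, which share the 6 libraries and their lengths.

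**Figure D3:**
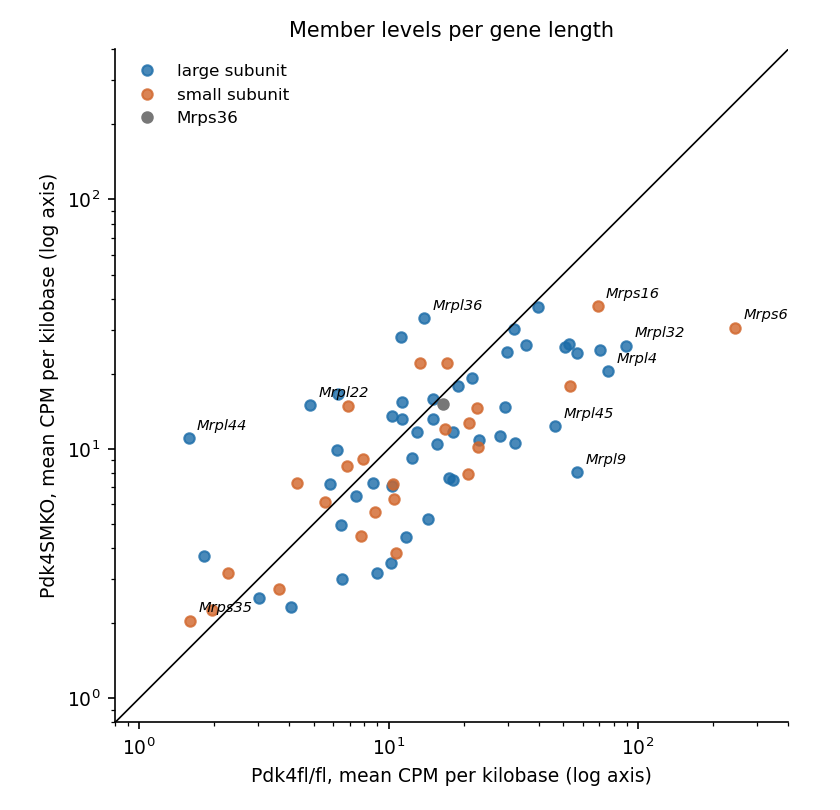
Mean level per gene length (CPM per kilobase, log axes) of the 73 tested members in Pdk4fl/fl (horizontal) and Pdk4SMKO (vertical), with colours for the subunit and a line of equal level. The cloud is wider along the Pdk4fl/fl axis, and Mrps6 (246 against 30.6) and Mrpl44 (1.58 against 11) lie farthest from the line on either side.

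The 2 members that could not be tested were Mrpl53 and Mrps18c, the latter named after its values were seen. Mrpl53 encodes mL53 of the large subunit and had 0 counts in all 6 libraries, which allows a level of up to 0.132 to 0.227 CPM per library by counting error only. Its span on chromosome 6 (86399699 to 86400598, plus strand) lies inside that of Gm42688, which had 4 to 14 counts per library, and the counting may leave out reads that fall on both. Mrps18c, for bS18m, had 6, 14 and 7 against 8, 5 and 6 counts and shares part of its span with another counted feature. In all, 32 members share part of their span with another counted gene. Over the 43 tested members of whose span no part is shared, 13 were lower (30.2%) and 4 higher (9.3%) past both limits. Over all tested genes these shares were 26.5% and 32.8%. At the adjusted p alone 21 of the 43 were lower and 8 higher, with a median log2 fold change of -0.38.

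Many members start next to a gene on the opposite strand. Within 1000 bases, 30 members had a protein-coding gene that starts head to head with them, which made 29 pairs, of which 27 had both genes tested. Pairs and partners were chosen after values were seen. Among 13 pairs with both genes past the adjusted p, 8 moved in the same direction, 7 of them down, and 5 moved in opposite directions. Over all tested genes 37.1% were lower and 42.0% higher at the adjusted p alone, and head-to-head pairs of other genes were not counted. Of the pairs that moved together, Mrpl9/Oaz3, Mrpl21/Ighmbp2, Mrpl46/Mrps11, Mrpl47/Ndufb5 and Mrpl13/Mtbp have overlapping spans. Of those that moved apart, Mrps7/Gga3 and Mrpl44/Wdfy1 do. The strand handling of the counts was not given in the sources used here, and where spans overlap, reads of the partners cannot be told apart without strand.

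Only in 1 pair were both genes members. Mrpl46 and Mrps11 encode proteins of different subunits and start from the same stretch on chromosome 7, with 42 bases between the RefSeq starts on GRCm38.p6, so that the printed window of Mrps11 covers the start of Mrpl46. Mrps11, for uS11m, was at 20.1, 22.3 and 27.6 against 7.68, 8.61 and 8.68 CPM and fell by 1.48 ± 0.17, next to the fall by 1.45 of Mrpl46. The ratio of Mrpl46 to Mrps11 counts was 0.864, 0.805 and 0.926 in Pdk4fl/fl and 0.966, 0.873 and 0.836 in Pdk4SMKO. The 2 genes thus fell together, and their ratio overlapped between genotypes. In the coordinates of the table, however, their spans share 413 bases, and reads there cannot be told apart without strand.

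Other pairs came apart. Mrps12 lies head to head with Sars2, the mitochondrial seryl-tRNA synthetase, 148 bases away in the coordinates of the table. Sars2 fell from 9.98 ± 1.10 to 5.20 ± 0.60 CPM (log2 fold change -0.94 ± 0.20, adjusted p = 0.00143) while Mrps12 rose, and the ratio of Mrps12 to Sars2 counts went from 0.467, 0.711 and 1.02 to 2.80, 3.08 and 3.02. Mrpl44 lies 125 bases from Wdfy1, an endosomal protein gene on the opposite strand with which it shares 126 bases of span. Wdfy1 fell from 65.7 to 18.5 CPM (log2 fold change -1.83 ± 0.15), and the ratio of Mrpl44 to Wdfy1 counts went from 0.0444, 0.0351 and 0.0397 to 0.881, 1.04 and 1.04. In both pairs the ratios of the genotypes were far apart, without overlap. Mrpl41 rose by 1.41 and Pnpla7, a lysophospholipase gene 935 bases away, fell by 3.01. In the reverse sense, Mrps7 fell by 1.58 beside Gga3, an adaptor of Golgi transport that rose by 1.64.

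**Figure D4:**
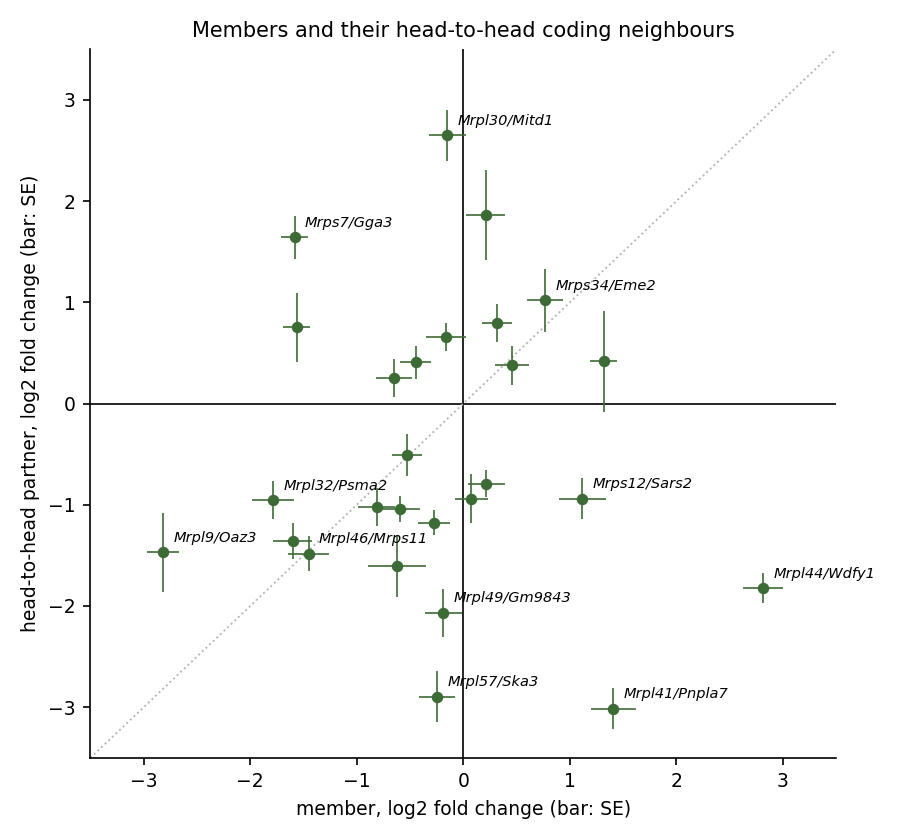
Log2 fold change (Pdk4SMKO over Pdk4fl/fl) of a member (horizontal) and of the protein-coding gene that starts head to head with it within 1000 bases (vertical) for the 27 pairs with both tested, with bars for the SE and a dotted line of equal change. Mrpl46 with Mrps11 lies on the line in the lower left, and Mrpl44, Mrps12 and Mrpl41 lie in the lower right, where the member rose and the partner fell.

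The genes listed here as proteins of the mitochondrial ribosome that the name rule leaves out were mostly lower too. The list includes Ndufab1, which the study's gene sets place in respiratory complex I and which did not pass (log2 fold change -0.42, adjusted p = 0.113). Of the 9 tested, 5 were lower past both limits (55.6%, against 26.5% of all tested genes). At the adjusted p alone in edgeR's quasi-likelihood test 6 were lower and 1 higher. The median change of the 9 genes of this list was -1.05 on the log2 scale. It also includes 3 proteins, Mrpl48, Mrpl58 and Mrps21, that the table carries under other or no gene names, and these were recognised after the table was seen. Aurkaip1, for mS38, fell by 2.06 ± 0.15 (107 ± 15.7 to 25.7 ± 2.58 CPM), and Gadd45gip1, for mL64, fell by 1.45 ± 0.18 (36.5 ± 8.72 to 13.3 ± 0.36 CPM). The list's other end held Mrps21, which did not pass (log2 fold change -0.30, adjusted p = 0.269), and Mrpl58, the peptidyl-tRNA hydrolase that rescues stalled ribosomes, which rose by 0.48 ± 0.20 (12.4 ± 3.41 to 17.2 ± 0.80 CPM, adjusted p = 0.0481).

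Factors that build the mitochondrial ribosome or work with it did not share the members' downward median. Of 26 assembly factors, 3 were lower and 7 higher past both limits (7 and 11 at the adjusted p alone), with a median of 0.36. Among all tested genes 26.5% were lower and 32.8% higher past both limits, and 37.1% and 42.0% at the adjusted p alone. The share of assembly factors that fell was below this background by either rule. The share that rose was below it past both limits and near it at the adjusted p alone. Rpusd4 and Trub2, which encode pseudouridine synthases, were both lower: Rpusd4 fell by 2.45 ± 0.19 (65.7 to 12.1 CPM) and Trub2 fell by 1.85 ± 0.14 (86.8 to 24.1 CPM). Ddx28, an RNA helicase of large-subunit assembly, rose by 2.08 ± 0.21 (3.60 to 15.1 CPM), and Ybey, an endoribonuclease that acts on the small subunit, rose by 2.00 ± 0.55 (0.866 to 3.39 CPM). The list thus held changes of similar size in both directions.

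Among 16 translation factors, 3 were lower (18.8%) and 7 higher (43.8%) past both limits, against 26.5% and 32.8% of all tested genes. At the adjusted p alone 4 were lower (25%) and 7 higher (43.8%), against 37.1% and 42.0%, and the median was 0.09. Lrpprc, which stabilises mitochondrial mRNAs, fell by 2.06 ± 0.11 (290 ± 11.9 to 69.5 ± 3.02 CPM) and Oxa1l, the insertase that receives the new proteins at the inner membrane, by 1.03 ± 0.13. Taco1, an activator of cytochrome oxidase subunit translation, rose by 2.28 ± 0.27 (1.23 to 5.96 CPM) and Mtrfr, a ribosome rescue factor, by 1.86 ± 0.28 (1.27 to 4.62 CPM). Mitochondrial aminoacyl-tRNA synthetases charge the tRNAs that the ribosome uses. Their list here also holds Gatb, Gatc and Qrsl1, which encode amidotransferase subunits. Of the 20 genes, 2 were lower (10%) and 10 higher (50%) past both limits, against 26.5% and 32.8% of all tested genes. At the adjusted p alone 5 were lower (25%) and 11 higher (55%), against 37.1% and 42.0%, and the median was 0.94. Yars2 and Aars2 fell, by 1.88 ± 0.12 and 1.34 ± 0.19, while Pars2 rose from 0.143 to 2.19 CPM and Mars2 from 0.954 to 11 CPM.

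The cytosolic ribosomal proteins, which share no subunit with the mitochondrial ribosome, moved much more uniformly. Of 77 found and tested, 72 were lower (93.5%) and 1 higher (1.3%) past both limits, against 26.5% and 32.8% of all tested genes. At the adjusted p alone 74 were lower and 1 higher, and the median was -2.09. Rpl11, of the large cytosolic subunit, fell by 2.77 ± 0.22. Rps27l did not pass (log2 fold change -0.47, adjusted p = 0.131), and Rpl24, listed at 0.227 against 0.999 CPM, rose by 2.06. These genes have many processed copies among which reads can be split. They took 6.76, 7.33 and 10.8% of all counts in Pdk4fl/fl and 2.78, 2.85 and 3.29% in Pdk4SMKO, whereas the shares of the mitochondrial members overlapped between genotypes.

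**Figure D5:**
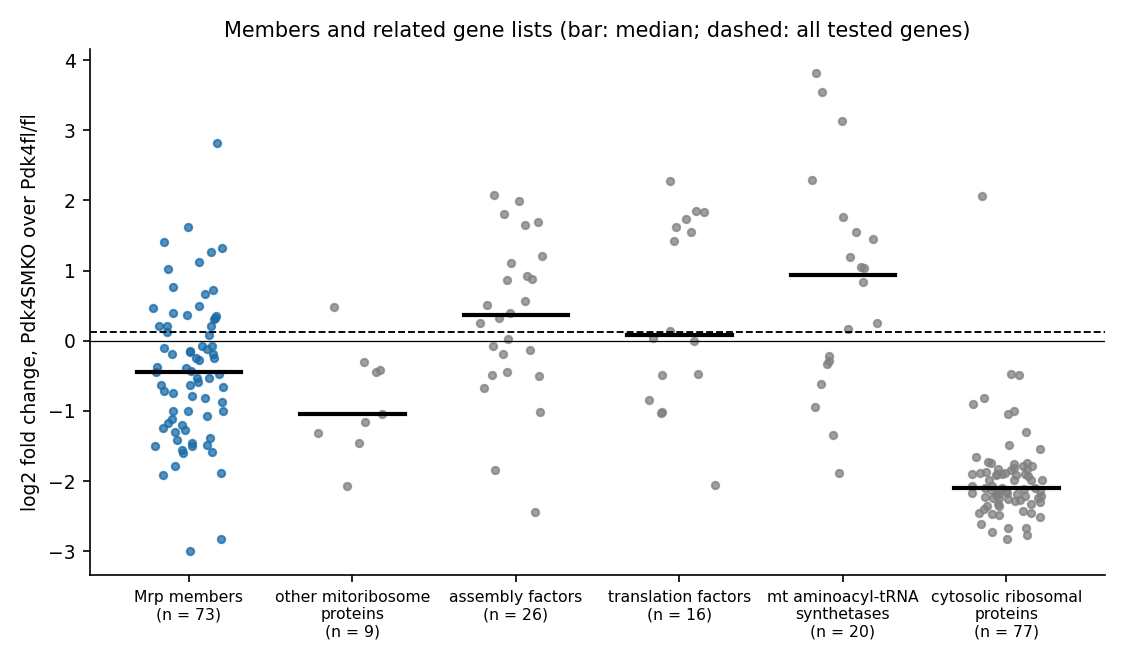
Log2 fold change (Pdk4SMKO over Pdk4fl/fl) of each tested gene of the mitochondrial ribosomal protein members (n = 73) and of 5 related lists, with a bar at each list's median and a dashed line at the median of all tested genes (0.12). The members range from -3.00 to 2.81 around a median of -0.45. The list of aminoacyl-tRNA synthetases and amidotransferase subunits has a median of 0.94 and the cytosolic ribosomal proteins one of -2.09.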

How the data were processed

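RNA-seq was made from 6 cultures, and the authors deposited a table of raw read counts per gene, with gene coordinates, lengths and descriptions. The submitters' processing notes name GRCm39, but the gene identifiers and coordinates are those of Ensembl's C57BL/6NJ strain annotation, and the table's coordinates are given as such. The aligner, counter, version and strand setting are not given in the sources used here, and neither is whether reads of overlapping genes were dropped. The labels and the methods name different library kits, SMARTER and NEBNext Ultra. Of the 41721 features, 625 lie outside the strain annotation.

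Members were protein-coding genes named Mrpl or Mrps followed by a number. 55 pseudogenes name a member in their description, with at most 63 counts in a library. The members and lists were chosen with earlier results of these data known. Genotype groups came from the labels. Genes passing edgeR's filterByExpr were fitted with TMM scaling and the quasi-likelihood test (edgeR 4.0.16, R 4.3.3), Pdk4SMKO against Pdk4fl/fl, with Benjamini-Hochberg adjustment over the 14085 tested genes. Called meant an adjusted p under 0.05, with or without a fold of at least 2. CPM values use TMM-scaled library sizes, and levels between genes were compared per kilobase of gene length. A self-test on simulated counts with 200 changed genes was run. DESeq2 1.42.0, other scalings, filters, a replicate block and leaving out each library were the alternatives.

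Named with values were Pdk4, the 5 members at either end of the ranking by log2 fold change, the 3 highest and 3 lowest per length, those at the functional sites described, those renamed, those nearest to a fold of 2, those with at most 3 counts in every library, and for each list the 2 genes at either end. Of the lists, Mtg2, Tufm, Lyz2, Rpl10, Rpl27, Rpl29, Rpl41, Rplp1, Rps3a and Rps27 had no single matching gene in the table and were not used. Some genes that this rule or these lists would name are not reported here. Promoter windows come from RefSeq (GRCm38.p6), and members without a window there were Mrpl4, Mrpl13, Mrpl15, Mrpl19, Mrpl38, Mrpl54, Mrps28, Mrps34 and Mrps35. No coordinates were converted between builds. Libraries of a genotype differed by more than counting noise, so none was counted as a duplicate.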

Additional observations from a re-analysis of the deposited data

How the results depend on the processing

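The scaling moved the values most. With library size alone, the members past both limits were 5 lower and 13 higher (22 and 7 with TMM), those past the adjusted p alone 22 lower and 29 higher (36 and 12), and the median log2 fold change was 0.16 against 0.72 for all tested genes. The 4 lists of other mitoribosome proteins, assembly factors, translation factors and aminoacyl-tRNA synthetases together had 13 genes lower past both limits, which became 5 with library size alone and 8 with upper-quartile scaling, and 22 lower at the adjusted p alone, which became 10 with library size alone. With upper-quartile scaling the members' median was -0.24 against 0.33 for all tested genes. Over the leave-one-out fits, 10 to 19 members were higher at the adjusted p alone, the 19 being without Pdk4fl/fl replicate 3.

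The log2 fold change of 19 members turned positive with library size alone: Mrpl13 0.019, Mrpl3 0.42, Mrpl30 0.46, Mrpl43 0.16, Mrpl17 0.083, Mrpl2 0.33, Mrpl12 0.53, Mrpl42 0.50, Mrpl49 0.42, Mrps36 0.49, Mrpl33 0.37, Mrpl34 0.55, Mrpl14 0.45, Mrpl57 0.37, Mrps18b 0.073, Mrps30 0.18, Mrps22 0.22, Mrps28 0.15 and Mrpl23 0.24. With upper-quartile scaling it turned positive for Mrpl3 0.023, Mrpl30 0.058, Mrpl12 0.13, Mrpl42 0.11, Mrpl49 0.025, Mrps36 0.089, Mrpl34 0.14 and Mrpl14 0.047, and with a minimum of 10 counts in every library for Mrpl12 0.021 and Mrpl34 0.030. Over the leave-one-out fits it crossed 0 for Mrpl30 -0.24 to 0.020, Mrpl50 -0.0030 to 0.21, Mrpl12 -0.17 to 0.077, Mrpl42 -0.19 to 0.036, Mrps36 -0.29 to 0.083, Mrpl33 -0.46 to 0.21, Mrpl34 -0.25 to 0.20 and Mrpl14 -0.26 to 0.021. Of these, Mrpl13, Mrpl17, Mrpl43, Mrps18b and Mrps30 had passed the adjusted p with TMM.

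Of the 48 members past the adjusted p, 32 passed it in the same direction under every alternative run, and of the 29 past both limits, 10 did. RLE scaling, TMM without cytosolic ribosomal protein genes, DESeq2, no filter, coding genes alone and the replicate block gave 21 to 24 members lower and 6 or 7 higher past both limits. Same-numbered libraries deviated together only weakly (correlations of 0.0396, 0.0604 and 0.176), so the numbers were not taken as pairs. The fit with a replicate block gave 21 lower and 7 higher past both limits, 37 and 13 at the adjusted p alone, and a median of -0.44.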
